A study of Mus musculus with 18 samples.

Results

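Immediate early genes and heat shock genes were compared between endothelial and other cells sorted from the mouse retina. The gene set held 37 genes, 26 immediate early and 11 heat shock or related chaperone genes listed by name. Each gene was read from the brightest probe set that carries its symbol alone, on the first of the array chips A, B and C that has one. In this way 35 of the 37 genes were measured, of 15964 genes measured in all, 34 of them on chip A and Egr3 on chip C. The immediate early gene Ier5 and the cytosolic HSP90 gene Hsp90ab1 had no such probe set and were not analysed here.

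Both cell populations came from retinas of FVB/N mice at postnatal day 8 that were homozygous for a transgene in which the Tie2 promoter drives GFP. The retinas were pooled and minced, digested with papain for 60 min at 37 °C, taken through further warm DNase and ovomucoid steps, stained with propidium iodide and sorted. GFP-positive cells are labelled as endothelial and GFP-negative cells are the remaining retinal cells. Their RNA was amplified and measured on Affymetrix MGU74v2 arrays, a set of 3 chips, with 3 arrays per population and chip and 18 arrays in all. Both populations went through the same dissociation and sorting, and no undissociated retina was analysed here, so each value below compares one handled population with the other and levels set in the tissue and during handling cannot be told apart. Whether replicate arrays stem from different animals or sorts is not stated in the labels, so a p-value here reflects array-to-array spread that could be technical only. In bulk samples such as these, fewer cells of a type and less RNA per cell cannot be told apart.

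Immediate early genes are switched on within minutes of a stimulus, without new protein synthesis, by factors such as SRF with its ternary complex partners, MRTF proteins, and CREB that are already present in the cell. Their products include transcription factors, which act on a later wave of genes, and inhibitors that shut the response down. Heat shock genes are induced by HSF1 when proteins misfold, and encode chaperones that hold, refold or pass on client proteins. Both groups of genes are known to respond to the enzymatic dissociation of tissues.

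Upstream sequence was available in the RefSeq promoter table (mouse build GRCm38.p6, 250 bases before to 50 bases after the transcription start) for 27 of the 35 measured genes, 19 immediate early and 8 heat shock. The windows of 5 genes with a match to the heat shock units found below are shown as examples, and do not represent the set. Among them are Hspa1a and Hspa1b, whose probe sets may not be told apart. Other genes with a match, such as Hspb1, are not shown. Nor are Fos and Nr4a1, whose windows held no match to any motif searched. Jun (chr4:95052173-95052472, minus strand) encodes a subunit of the AP-1 transcription factor. Hsph1 (chr5:149636287-149636586, minus strand) encodes the HSP110 chaperone, and Hspe1 (chr1:55087898-55088197, plus strand) the small mitochondrial chaperonin. Hspa1a (chr17:34972107-34972406, minus strand) and Hspa1b (chr17:34959189-34959488, minus strand) encode the inducible HSP70. Each sequence runs 5′ to 3′ along the gene's strand, and the capitals mark matches to the heat shock unit pairs GAANNTTC and TTCNNGAA.

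Jun: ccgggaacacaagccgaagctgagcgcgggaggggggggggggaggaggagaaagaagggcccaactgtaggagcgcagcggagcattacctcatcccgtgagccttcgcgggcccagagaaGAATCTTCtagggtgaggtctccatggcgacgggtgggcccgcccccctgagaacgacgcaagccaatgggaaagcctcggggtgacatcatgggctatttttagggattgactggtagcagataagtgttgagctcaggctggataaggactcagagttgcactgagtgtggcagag
Hsph1: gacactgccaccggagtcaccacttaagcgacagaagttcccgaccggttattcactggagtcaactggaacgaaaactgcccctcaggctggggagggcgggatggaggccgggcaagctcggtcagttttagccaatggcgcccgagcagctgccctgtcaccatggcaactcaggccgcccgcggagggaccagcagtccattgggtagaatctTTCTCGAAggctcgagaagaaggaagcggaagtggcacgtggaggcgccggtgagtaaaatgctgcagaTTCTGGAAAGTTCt
Hspe1: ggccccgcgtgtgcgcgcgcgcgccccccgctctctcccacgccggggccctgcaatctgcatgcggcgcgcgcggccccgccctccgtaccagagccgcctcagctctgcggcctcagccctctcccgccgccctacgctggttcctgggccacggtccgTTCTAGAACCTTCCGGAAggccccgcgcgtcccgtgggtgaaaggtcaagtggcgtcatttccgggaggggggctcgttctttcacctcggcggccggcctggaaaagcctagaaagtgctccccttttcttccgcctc
Hspa1a: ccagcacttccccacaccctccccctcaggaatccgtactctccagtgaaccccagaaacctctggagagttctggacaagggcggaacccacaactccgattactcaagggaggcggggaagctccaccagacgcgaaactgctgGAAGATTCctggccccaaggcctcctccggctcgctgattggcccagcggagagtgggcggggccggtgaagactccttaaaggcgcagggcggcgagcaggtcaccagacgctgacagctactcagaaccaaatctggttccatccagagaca
Hspa1b: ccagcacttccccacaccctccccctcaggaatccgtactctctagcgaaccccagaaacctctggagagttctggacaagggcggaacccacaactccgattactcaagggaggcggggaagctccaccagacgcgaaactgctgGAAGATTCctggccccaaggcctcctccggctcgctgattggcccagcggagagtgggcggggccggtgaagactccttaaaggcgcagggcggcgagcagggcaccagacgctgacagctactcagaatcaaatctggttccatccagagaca

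The Hspa1a and Hspa1b windows held the same base at 296 of 300 positions. GAANNTTC, which reads the same on both strands, occurred in the windows of 6 of the 8 heat shock genes (Hspa1a, Hspa1b, Hsph1, Hspb1, Hspd1 and Hspe1) and of 2 of the 19 immediate early genes (Fosl2 and Jun), against 9.04% of all 27025 genes with a window. The opposite pair TTCNNGAA occurred in Hsph1, Hspd1 and Hspe1 and in Egr2 and Ccn1, against 9.6% of all genes. A run of 3 alternating units, which contains both pairs, occurred in Hsph1, Hspd1 and Hspe1, against 0.662% of all genes, and in 0 of the 19 immediate early genes. The start sites of Hspd1 and Hspe1 lie head to head, and one Hspd1 window shares 285 bases with the Hspe1 window, so their matches are the same bases. The CArG box, the element bound by SRF, was matched in Egr2 and Zfp36 (1.81% of all genes), and the cAMP response element TGACGTCA in Dusp1 and Btg2 (2.03%). The AP-1 element TGANTCA was matched in Hspa5 alone among the 27 genes (8.97% of all genes). These matches describe letters in a short window, and several genes of the set, Egr1, Hsp90aa1 and Ccn2 among them, had no window.

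Among the 35 measured genes, 1 was higher in GFP-positive cells (Nr4a1, 2.86% of the genes) and 7 were lower (Fos, Fosb, Jun, Egr1, Gadd45g, Hsp90aa1 and Hsph1, 20.0%), by limma with a Benjamini-Hochberg adjusted p under 0.05. Of all genes measured the same way 9.43% were higher and 11.3% were lower. At an unadjusted p under 0.05, 6 genes of the set were higher and 14 lower, against 17.3% of all genes in each direction. For 19 of the 35 genes every GFP-positive array lay on the same side of every GFP-negative array, against 40.6% of all genes. The median log2 difference, GFP-positive minus GFP-negative, was -0.37 over the 35 genes and 0.04 over all genes, and the median size of the difference regardless of sign was 0.78 against 0.21. Differences are on the log2 scale of intensity plus 16, which understates the change of dim genes. The set was brighter than other genes. A mean above 100 units was seen for 17 of 25 immediate early, 9 of 10 heat shock and 4765 of 15929 other genes. The median sizes and the shares that passed were therefore not compared at like brightness. The counts moved with single arrays. Without GFP-positive replicate 1 there were 4 genes higher and 7 lower. Without GFP-negative replicates 1, 2 or 3 there were 1, 0 and 0 higher and 4, 7 and 3 lower.

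**Figure D1:**
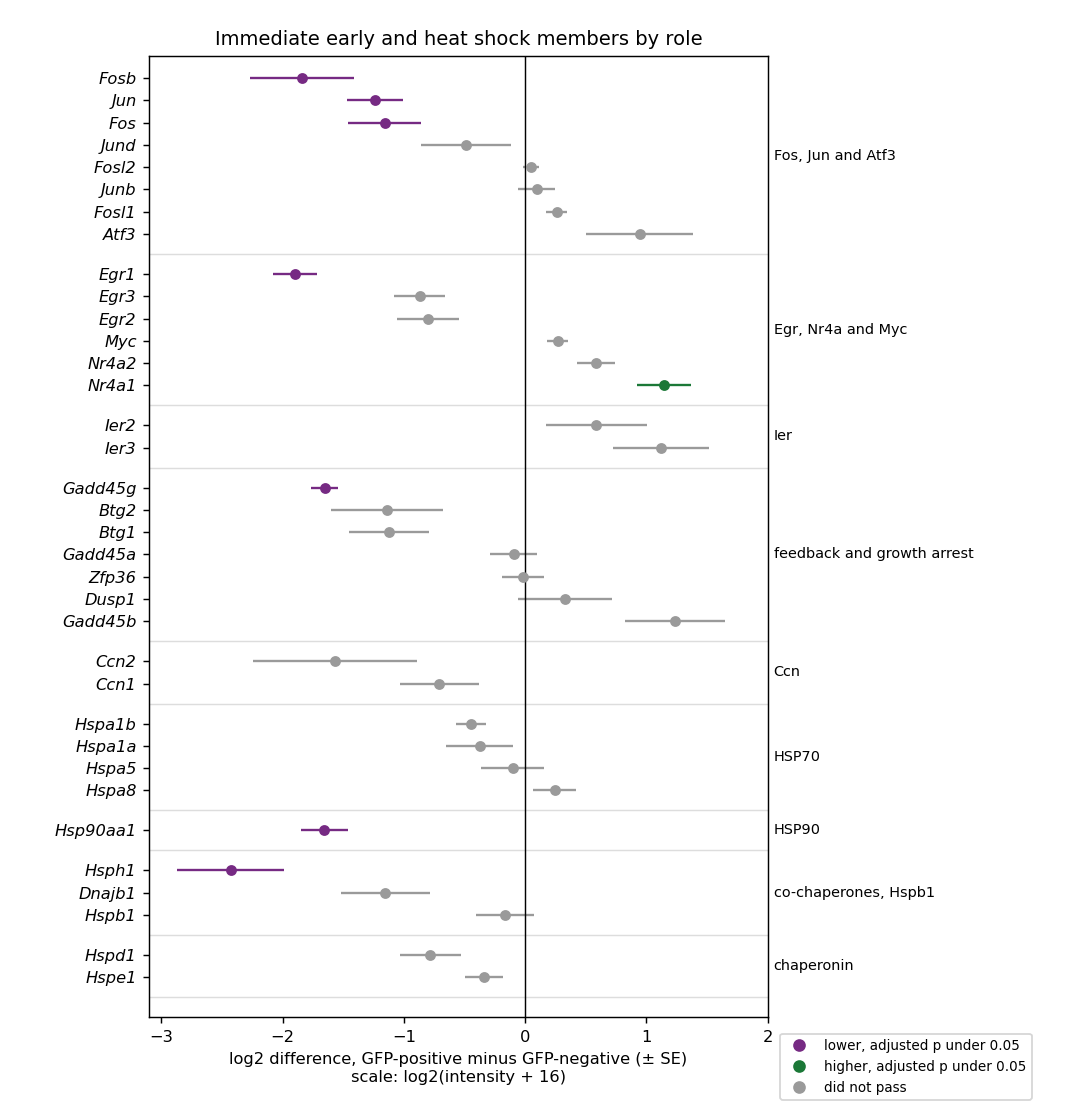
Log2 difference in intensity between GFP-positive and GFP-negative cells for the 35 measured genes, grouped by role. Points are the fitted difference and bars its standard error (3 arrays per population). The 7 genes that passed as lower run from -2.43 (Hsph1) to -1.16 (Fos), and Nr4a1, at 1.15, is the 1 gene that passed as higher.

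The chips differed in how many probe sets passed. In GFP-positive cells 9.09% of the probe sets of chip A, which measured 34 of the 35 genes, passed as higher and 9.25% as lower. Chip B had 9.6% higher and 11.3% lower, and chip C had 3.4% higher and 5.88% lower. Array medians ran from 43.3 to 44.5 intensity units on chip A, from 40.67 to 44.55 on chip B and from 32.5 to 34.4 on chip C. The third GFP-positive replicate was less like its fellow arrays, with Spearman correlations of 0.911 to 0.929 against 0.960 to 0.987 for every other pair within a population. Its summed markers of microglia (1453 against 460 and 462 units), Müller glia (1647 against 710 and 795) and retinal neurons other than photoreceptors (4090 against 408 and 518) were higher than in GFP-positive replicates 1 and 2. A single probe set carried most of each excess, Csf1r (930 units against 37.3 and 41.2), Glul (986 against 136 and 156) and Pcp2 (3689 against 172 and 240). Other markers of these lists went both ways. Rlbp1, Sox2, Pax6 and Snap25 were lowest on that array, at 26.8, 21.7, 6.76 and 20.1 units. Pax6 and Snap25 were so by little, as GFP-positive replicate 1 read 6.99 and 20.3. Slc1a3, Sox9, Vim and Aqp4 were highest on replicate 3, at 66.2, 69.0, 108 and 30.7 units. So was Syp, at 101. Of the microglial markers only C1qa and C1qb were lowest on replicate 3, at 34.0 and 53.2 units. All others of that list were highest there, some by little, with Ptprc at 56.7 and Cd68 at 75.1. For genes outside the set, replicate 3 was the highest GFP-positive array for 37.8% and the lowest for 44.2%. Without that array 1 gene of the set was higher and 10 were lower. The endothelial label was borne out by 9 of 10 endothelial markers, higher in GFP-positive cells, with sums of 12017 to 14754 units against 196 to 244. Of the other cell types, 5 of 8 Müller glia, 3 of 8 rod and cone, 2 of 10 other neuronal and 1 of 5 astrocyte markers were lower. Of the microglial markers 1 of 11 was higher, and 0 of 8 pericyte and 0 of 2 erythroid markers passed at an adjusted p under 0.05 by limma (at an unadjusted p under 0.05, 0 and 1). No marker was listed at 0 on any array.

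Fos and Jun proteins pair to form AP-1, which binds the promoters and enhancers of stimulus-response genes. By the probe sets of the rule, 3 of the 8 genes of this family, counting the related factor Atf3, were lower in GFP-positive cells. The other 5 did not pass. Of all genes 11.3% were lower and 9.43% higher. Fos, the founding member, read 883, 1855 and 1773 units on the 3 GFP-positive arrays and 3799, 3036 and 2864 on the 3 GFP-negative arrays. Every GFP-positive array was below every GFP-negative array, and replicate 1 was the lowest of its population in the former and the highest in the latter. The means were 1504 ± 539 and 3233 ± 498 (SD, n = 3 each), 2.15-fold lower in GFP-positive cells, with a log2 difference of -1.16 (SE 0.30, limma adjusted p = 0.0489). That p lay close to the threshold. The call was lost with median-centred arrays (0.0508), with a pseudocount of 64 (0.0657), and without any one of GFP-positive replicate 2 or GFP-negative replicates 1, 2 and 3 (0.0594 to 0.165). The other Fos probe set on chip A read 47.5, 83.8 and 175 units against 500, 380 and 341, a log2 difference of -1.97 (adjusted p = 0.0217).

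Fosb, a close relative of Fos that is induced with it, read 208, 603 and 561 units in GFP-positive cells and 1743, 1125 and 1821 in GFP-negative cells. The groups did not overlap, and GFP-positive replicate 1 was again the lowest array. The means of 457.5 ± 217 and 1563 ± 381 (SD, n = 3 each) differed 3.42-fold, a log2 difference of -1.84 (SE 0.43, limma adjusted p = 0.0342). Leaving out any single GFP-negative array ended the call (adjusted p from 0.0625 to 0.126). Jun read 194, 285 and 196 units against 691, 414 and 563, again without overlap. Its means of 225 ± 51.7 and 556 ± 139 (SD, n = 3 each) gave a log2 difference of -1.24 (SE 0.23, limma adjusted p = 0.0151). Without GFP-negative replicate 3 the adjusted p was 0.0658.

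The other members of the family did not pass. Jund, an AP-1 subunit that most cells express without a stimulus, read 182, 458 and 179 units against 313, 324 and 434. Its arrays overlapped, with a log2 difference of -0.49 (SE 0.37, adjusted p = 0.455). Without GFP-positive replicate 2, which was the highest of the 6 arrays, the difference was -0.91 (adjusted p = 0.0258). Junb, a Jun relative that can limit Jun activity, differed by 0.10 (adjusted p = 0.733). Atf3, a stress-induced partner of AP-1 proteins, read 179, 414 and 362 units against 217, 79.5 and 184, which overlapped, with a difference of 0.95 (SE 0.44, adjusted p = 0.217). Fosl1 was dim in both populations, below the chip's typical array median on every array, and differed by 0.26 (adjusted p = 0.0977).

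Fosl2, which encodes the Fos relative Fra-2, gave different readings on different chips. The rule takes its chip A probe set, which was dim on all 6 arrays, at 41.0, 42.0 and 40.6 units in GFP-positive and 38.6, 41.9 and 37.4 in GFP-negative cells (log2 difference 0.05, adjusted p = 0.691). On chip B, one probe set of Fosl2 read 1171, 1850 and 1676 units against 416, 141 and 298. The GFP-positive arrays were all above the GFP-negative ones, with a log2 difference of 2.49 (adjusted p = 0.00487). A further chip B probe set read 66.4, 115.5 and 102 against 51.4, 26.9 and 32.5, a difference of 1.07 (adjusted p = 0.0208). These probe sets lie outside the rule and were singled out after their values were seen.

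**Figure D2:**
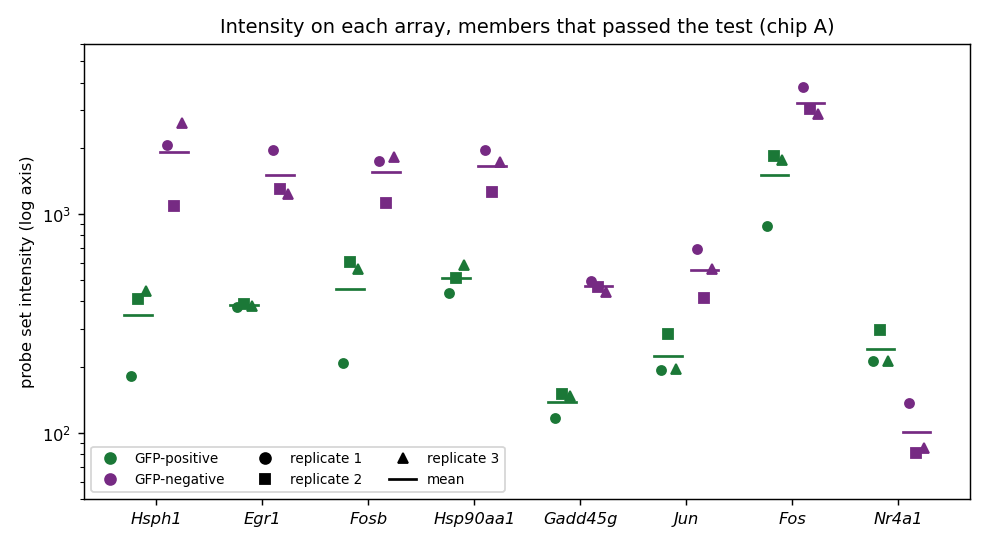
Intensity on each of the 6 chip A arrays (log axis) for the 8 genes that passed, with the mean of each population as a line and the replicate number as the symbol. GFP-positive arrays lie below all GFP-negative arrays for 7 genes and above them for Nr4a1, which read 213, 297 and 213 units against 137, 80.9 and 85.8.

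The Egr proteins are zinc finger transcription factors, and the Nr4a proteins are orphan nuclear receptors, all induced in the first wave of a response. Egr1 was lower and Nr4a1 higher in GFP-positive cells, and the other 4 genes of the group, Myc included, did not pass. The shares over all genes were 11.3% lower and 9.43% higher. Egr1 read 378, 389 and 382 units in GFP-positive cells and 1960, 1308 and 1242 in GFP-negative cells. The GFP-positive arrays lay close together and far below the lowest GFP-negative array. The means of 383 ± 5.67 and 1504 ± 397 (SD, n = 3 each) differed 3.93-fold, a log2 difference of -1.90 (SE 0.18, limma adjusted p = 0.00122). The adjusted p of Egr1 stayed under the threshold in all 17 alternatives run. Averaged with its other, dim chip A probe set, its difference was -1.05 (adjusted p = 0.00136).

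Egr3 and Egr2, related zinc finger factors, lay in the same direction without passing. Egr3 read 214, 178 and 138 units against 430, 276 and 306 on chip C, which did not overlap, with a log2 difference of -0.87 (SE 0.21, adjusted p = 0.0584). It fell below the threshold without GFP-positive replicate 3 (0.0402) and among brighter probe sets alone (0.0467). Egr2 read 93.9, 160 and 99.3 units against 269, 155 and 226, with GFP-positive replicate 2 inside the range of the GFP-negative arrays (difference -0.80, SE 0.26, adjusted p = 0.0879).

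Nr4a1, the receptor also known as Nur77, was the 1 gene of the set that was higher in GFP-positive cells by the probe sets of the rule. Fosl2 and Nr4a2 were higher by chip B probe sets outside it. It read 213, 297 and 213 units against 137, 80.9 and 85.8, and the groups did not overlap. The means of 241 ± 48.7 and 101 ± 31.3 (SD, n = 3 each) differed 2.38-fold, a log2 difference of 1.15 (SE 0.22, limma adjusted p = 0.0171). The call was lost without GFP-negative replicate 2 (0.0624) or replicate 3 (0.0745). Another Nr4a1 probe set, on chip B, differed by 0.23 (adjusted p = 0.145).

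Nr4a2, the related receptor Nurr1, read 24.4, 44.2 and 34.7 units against 16.03, 16.13 and 19.5 without overlap, and its log2 difference of 0.58 (SE 0.15) had an adjusted p of 0.0500, just above the threshold. It passed with a pseudocount of 1 (difference 0.92, adjusted p = 0.0310) and without GFP-positive replicate 1 (0.0129). Its chip B probe set, outside the rule, read 86.1, 162 and 130 units against 56.1, 14.9 and 53.8, a difference of 1.36 (adjusted p = 0.0432). A further chip A probe set of Nr4a2, dim on every array, differed by 0.27 and did not pass (adjusted p = 0.0987). Myc, a growth-promoting transcription factor, was dim on every array, at 10.3, 11.8 and 12.1 units against 9.01, 5.99 and 5.33 (difference 0.27, adjusted p = 0.0878).

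**Figure D3:**
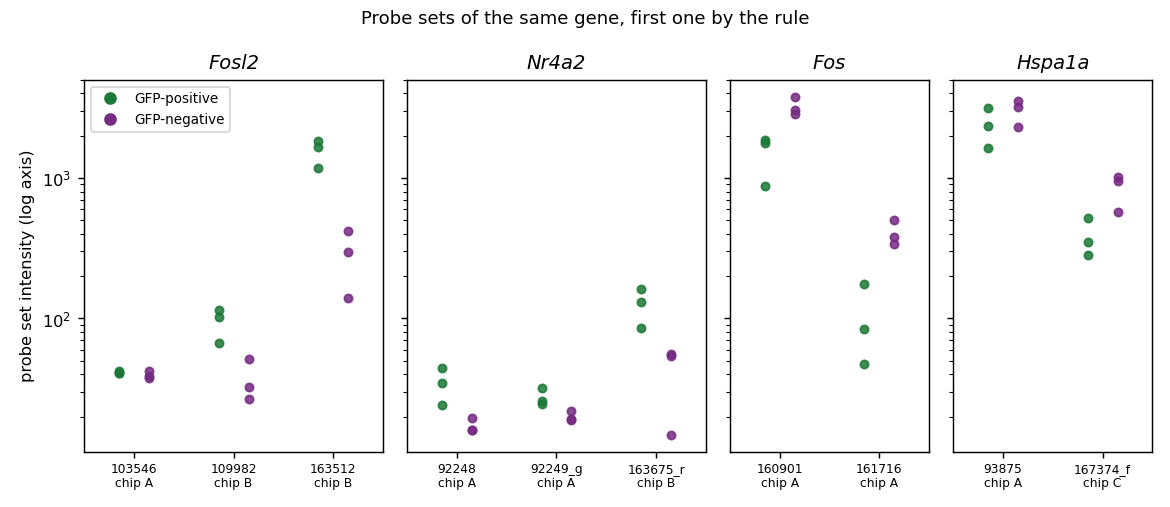
Intensity on each array (log axis) for every one-symbol probe set of Fosl2, Nr4a2, Fos and Hspa1a, with the probe set taken by the rule first in each panel. The Fosl2 probe sets on chip B separate the populations (log2 differences 1.07 and 2.49) while the dim one on chip A does not (0.05). Levels of different probe sets are not comparable.

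Across the whole set, 19 genes had 23 further one-symbol probe sets. Of these, 3 were higher (Fosl2 on chip B, both probe sets, and Nr4a2), 1 was lower (Fos) and 19 did not pass. Among the 23, 10 were dim on every array and 0 of those passed. None was called in the direction opposite to a called probe set of the rule. With the brightest probe set over all 3 chips, a choice made after the Fosl2 values had been seen, 3 genes of the set were higher, namely Nr4a1, Fosl2 and Nr4a2.

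The Ier genes are short-lived early response genes. Of the 2 measured ones 0 passed by limma, against 9.43% of all genes higher and 11.3% lower. At an unadjusted p under 0.05, 1 was higher and 0 lower, against 17.3% of all genes in each direction. Ier3, an inhibitor of cell death, read 25.9, 115.3 and 62.6 units against 20.2, 16.1 and 20.1, which did not overlap. Its log2 difference of 1.12 (SE 0.40) had an adjusted p of 0.117, and 0.0113 without GFP-positive replicate 1 (difference 1.55). Ier2, a nuclear protein of the first wave, read 247, 396 and 796 units against 366, 234 and 254 (difference 0.59, SE 0.42, adjusted p = 0.423), and GFP-positive replicate 3 was the highest array.

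Genes that restrain signalling or growth followed no common direction. Of 7, Gadd45g was lower and 6 did not pass, against 11.3% of all genes lower and 9.43% higher. Gadd45g, a stress sensor that binds p38 pathway kinases and cell cycle regulators, read 118, 151 and 148 units against 496, 467 and 443. The arrays of each population lay close together and the groups were far apart. The means of 139 ± 18.5 and 469 ± 26.3 (SD, n = 3 each) differed 3.38-fold, a log2 difference of -1.65 (SE 0.11, limma adjusted p = 0.000372), and the call held under all 17 alternatives.

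The paralog Gadd45b leaned the other way without passing. It read 304, 869 and 579 units against 310, 162 and 206, and GFP-positive replicate 1 fell within the GFP-negative range (log2 difference 1.24, SE 0.41, adjusted p = 0.0981). Without that array the difference was 1.63 (adjusted p = 0.0235). Gadd45a, the third gene of the family, differed by -0.09 (adjusted p = 0.801).

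Btg2, an antiproliferative gene and p53 target, did not pass. It read 216, 374 and 822 units against 937, 1077 and 760, so that GFP-positive replicate 3 overlapped the GFP-negative arrays (log2 difference -1.14, SE 0.46, adjusted p = 0.160). Without that array the difference was -1.63 (adjusted p = 0.00881). Its relative Btg1 read 215, 188 and 98.1 units against 491, 268 and 366, without overlap (difference -1.12, SE 0.33, adjusted p = 0.0693), and among brighter probe sets alone its adjusted p was 0.0475. A chip B probe set of Btg1 differed by 0.28 (adjusted p = 0.358). Dusp1, a phosphatase that switches off MAP kinases, read 101, 202 and 181 units against 213, 83.4 and 95.7 and overlapped fully (difference 0.33, adjusted p = 0.644). Zfp36, the protein tristetraprolin that destabilises mRNAs, differed by -0.02 (adjusted p = 0.965).

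Ccn1 and Ccn2 are secreted matricellular proteins and targets of SRF and YAP. For both genes every GFP-negative array was above every GFP-positive array, though for Ccn1 the nearest arrays nearly met (87.6 and 86.7 units). Neither gene passed. Ccn2 read 82.2, 84.2 and 74.4 units in GFP-positive cells and 808, 101 and 224 in GFP-negative cells, where replicate 1 was far above the others. Its log2 difference of -1.57 had an SE of 0.68 and an adjusted p of 0.188. Ccn1 read 49.2, 80.4 and 86.7 units against 205, 87.6 and 107 (difference -0.71, SE 0.32, adjusted p = 0.212), with the same GFP-negative array the highest.

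Of the 25 immediate early genes together, 1 was higher (4.0%), 5 were lower (20.0%) and 19 did not pass. Of all genes 9.43% were higher and 11.3% lower. The median log2 difference of the 25 was -0.09, while the median size regardless of sign was 0.87, since 14 genes lay below 0 and 11 above. Fos, Fosb, Jun, Egr1 and Gadd45g were lower while Nr4a1 was higher, so the immediate early genes did not shift as a block. The groups did not overlap for 14 of the 25, against 40.6% of all genes. The 5 lower genes became 3 without GFP-negative replicate 1 or 2 and 2 without replicate 3, and the 1 higher gene became 4 without GFP-positive replicate 1 and 0 without GFP-negative replicate 2 or 3.

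Heat shock proteins of the HSP70 family bind exposed stretches of unfolded proteins. Of the 4 measured members 0 passed by limma, against 9.43% of all genes higher and 11.3% lower. At an unadjusted p under 0.05, 0 were higher and 1 lower, against 17.3% of all genes in each direction. Hspa1a, an inducible HSP70, read 1626, 2348 and 3145 units against 3218, 2319 and 3521. The arrays overlapped, with a log2 difference of -0.37 (SE 0.28, adjusted p = 0.439). Hspa1b read 1813, 2115 and 1877 units against 2940, 2255 and 2748 without overlap (difference -0.44, SE 0.12, adjusted p = 0.0581), and passed after quantile normalization (0.0124) and without GFP-negative replicate 2 (0.0322). Hspa1a and Hspa1b are near-identical copies, as their windows above show for the promoter, so which of them each probe set measured is uncertain. A chip C probe set of Hspa1a read 285, 349 and 521 units against 955, 574 and 1010, also without overlap (difference -1.11, adjusted p = 0.0773).

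The remaining HSP70 genes are expressed by cells at rest. Hspa8, the constitutive cytosolic form, read 791, 795 and 703 units against 821, 511 and 626 (log2 difference 0.24, SE 0.17, adjusted p = 0.426). It was the only heat shock gene of the 10 with a difference above 0. Hspa5, the chaperone BiP of the endoplasmic reticulum, had means of 844 ± 247 and 902 ± 211 (SD, n = 3 each) and a difference of -0.10 (adjusted p = 0.840).

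The cytosolic chaperones that work with HSP70 held both heat shock calls. Hsp90aa1, the stress-inducible cytosolic HSP90, read 435.5, 509 and 584 units in GFP-positive cells and 1968, 1260 and 1739 in GFP-negative cells. The highest GFP-positive array was well below the lowest GFP-negative one. The means of 509 ± 74.2 and 1656 ± 361 (SD, n = 3 each) differed 3.25-fold, a log2 difference of -1.66 (SE 0.19, limma adjusted p = 0.00263). The call held under all 17 alternatives, although averaging with its other, dim chip A probe set gave a difference of -0.78 (adjusted p = 0.00424).

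Hsph1, the HSP110 protein that recharges HSP70 by exchanging its nucleotide, showed the largest difference in either direction among the 35 probe sets taken by the rule. It read 182, 408 and 444 units against 2069, 1090 and 2605, with no overlap. GFP-negative replicate 2 was the lowest of its population, as it was for Hsp90aa1. The means of 345 ± 142 and 1921 ± 768 (SD, n = 3 each) differed 5.57-fold, a log2 difference of -2.43 (SE 0.44, limma adjusted p = 0.0146). Without GFP-negative replicate 1 the adjusted p was 0.0629, and without replicate 3 it was 0.0587. The Hsph1 window printed above carries 3 alternating heat shock units just downstream of the start.

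Dnajb1, the HSP40 that delivers clients to HSP70, read 101, 206 and 77.3 units against 282, 208 and 381. The groups did not overlap, but the highest GFP-positive and the lowest GFP-negative array nearly met (log2 difference -1.15, SE 0.37, adjusted p = 0.0878). Without GFP-positive replicate 2 the difference was -1.51 (adjusted p = 0.0253). Its chip C probe set, dimmer at a mean of 51.9 units against 31.5, differed by 0.49 (adjusted p = 0.147). Hspb1, the small heat shock protein HSP27, was dim on every array (difference -0.17, adjusted p = 0.705). Without GFP-positive replicate 3 its difference was -0.44 (adjusted p = 0.0273).

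Hspd1 and Hspe1 encode the partner subunits HSP60 and HSP10 of the mitochondrial chaperonin and are transcribed from a shared start region. Hspd1 read 1232, 991 and 1052 units against 2199, 1270 and 2383, without overlap (log2 difference -0.78, SE 0.25, adjusted p = 0.0881). Hspe1 read 1796, 1344 and 1433 units against 2051, 1621 and 2127 (difference -0.34, SE 0.15, adjusted p = 0.208), and GFP-positive replicate 1 overlapped. Both lay below 0, and for both GFP-negative replicate 2 was the lowest of its population. After quantile normalization both passed (0.0375 and 0.0383), and Hspd1 also passed without GFP-negative replicate 2 (0.00922).

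Of the 10 heat shock genes, 2 were lower, 8 did not pass and 0 were higher by limma, with 5 lower and 0 higher at an unadjusted p under 0.05 (17.3% of all genes in each direction). At the adjusted threshold 9.43% of all genes were higher and 11.3% lower. The count of heat shock genes higher was also 0 with limma-trend. The median log2 difference of the heat shock genes was -0.41, and 9 of the 10 genes lay below 0. The populations did not overlap for 5 of the 10, near the 40.6% of all genes. Without GFP-negative replicate 1 or 3 the lower count was 1, and without replicate 2 it was 4. After quantile normalization 5 heat shock genes were lower, the added ones being Hspa1b, Hspd1 and Hspe1. Among the 8 genes with a promoter window, Hsph1, which passed, and Hspd1 and Hspe1, which did not, held the run of 3 units.

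Arrays of the same population differed among themselves at these genes. Over all measured genes of each kind, the median SD of log2 values between the 3 GFP-positive arrays was 0.36 for immediate early, 0.30 for heat shock and 0.16 for other genes, and between the GFP-negative arrays 0.32, 0.33 and 0.12. Among genes with a mean intensity above 100 units, it was 0.48 in GFP-positive and 0.36 in GFP-negative cells for 17 immediate early genes. It was 0.29 and 0.18 for 4765 other genes. For 9 heat shock genes it was 0.22 and 0.33. GFP-positive replicate 1 was the lowest array of its population for 18 of the 25 immediate early genes (72.0%). It was so for 32.6% of all other genes and 31.4% of those above 100 units. GFP-positive replicate 2 was the highest for 16 of the 25 (64%, against 30.4% and 30.0%). In GFP-negative cells replicate 1 was the highest for 18 of 25 (72.0%, against 29.6% and 38.0%). Replicate 2 was the lowest for 16 (64%, against 26.5% and 35.0%). For the heat shock genes, GFP-negative replicate 2 was the lowest for 9 of 10 (90.0%, against 26.5% and 35.0%). GFP-negative replicate 3 was the highest for 6 (60.0%, against 29.4% and 31.2%). GFP-negative replicate 2 also had the lowest sum of rod and cone markers, 720 units against 1393 and 1423 in the other GFP-negative arrays. This came mostly through Sag (334 against 883 and 894), and its part in the values above was not tested. Since genes of one array share its RNA, these counts describe arrays and carry no test.

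**Figure D4:**
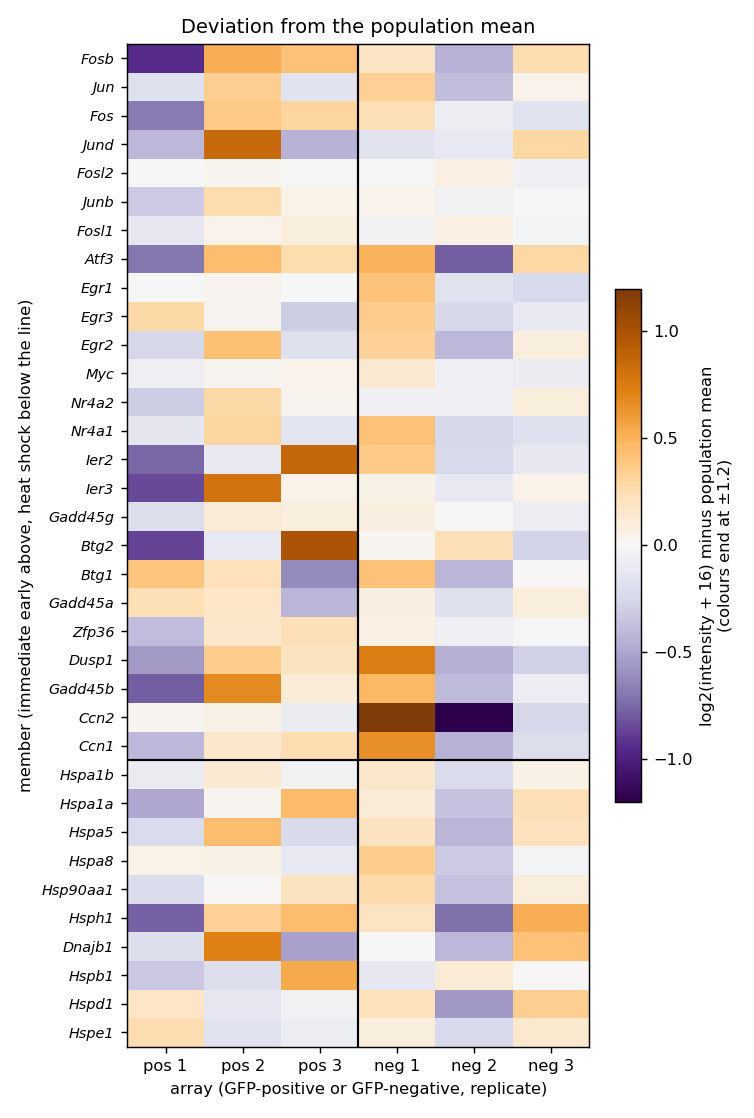
Deviation of each array from the mean of its own population, as log2(intensity + 16), for the 35 genes (rows) on the 6 arrays (columns). Orange is above and purple below the mean, and colours end at ±1.2, which the Ccn2 values of GFP-negative replicates 1 and 2 exceed. GFP-positive replicate 1 is mostly purple across the immediate early rows (lowest for 18 of 25), and GFP-negative replicate 2 across the heat shock rows (lowest for 9 of 10).

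Other genes of the same pathways were taken from lists made for this comparison. Of all genes 9.43% were higher and 11.3% lower, with a median log2 difference of 0.04. Of 41 measured genes that respond to similar stimuli but lie outside the set, 11 were higher (26.8%) and 2 lower (4.88%). Their median log2 difference was 0.21. The largest were Cxcl1, a neutrophil-attracting chemokine, at 1159 ± 481 against 93.9 ± 25.7 units (SD, n = 3 each; difference 3.35, limma adjusted p = 0.00214), Klf4, a shear-responsive transcription factor (2.59, adjusted p = 0.0119), and Sgk1, a kinase induced by serum and steroids (2.48, adjusted p = 0.0192). The 2 lower genes were Zfp36l2, an mRNA-destabilising relative of Zfp36 (-1.65, adjusted p = 0.0177), and Dusp5, a phosphatase of ERK (-0.85, adjusted p = 0.0345). Several genes of this list are also known to be expressed in resting endothelium.

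Of 36 further chaperones and co-chaperones, 2 were higher (5.56%) and 6 lower (16.7%), against 9.43% and 11.3% of all genes. Their median was -0.07. The largest lower ones were Fkbp4, an HSP90 partner of steroid receptors, at 310 ± 60.5 against 811 ± 89.0 units (SD, n = 3 each; difference -1.35, limma adjusted p = 0.00302), Dnaja1, an HSP40 (-1.22, adjusted p = 0.0351), and Cct8, a subunit of the cytosolic chaperonin (-1.16, adjusted p = 0.0261). The higher ones were Cdc37, which brings kinases to HSP90 (0.69, adjusted p = 0.00822), and the small heat shock protein Hspb8 (0.52, adjusted p = 0.0329).

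Of 20 measured upstream regulators, 2 were higher (10.0%) and 1 lower (5.0%), against 9.43% and 11.3% of all genes. Wwtr1, the YAP partner TAZ, differed by 1.44 (limma adjusted p = 0.00361), the SRF coactivator Mrtfb, dim at 28.4 against 9.50 units, by 0.81 (adjusted p = 0.00375) and the kinase Mapk8, or JNK1, by -0.68 (adjusted p = 0.0426). Srf, the factor that binds the CArG box, read 80.5 ± 31.0 against 99.1 ± 14.2 units on chip B (SD, n = 3 each), a difference of -0.31 (adjusted p = 0.441), and Hsf1 was not measured. Among 23 genes of the unfolded protein response of the endoplasmic reticulum, to which Hspa5 belongs, 1 was higher (4.35%) and 0 lower by limma. At an unadjusted p under 0.05, 2 of the 23 were higher and 2 lower, against 17.3% of all genes in each direction. The higher gene was Edem1, which helps clear misfolded glycoproteins (0.57, adjusted p = 0.0114), at a dim 18.2 against 7.05 units.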

How the data were processed

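The deposited tables give a linear intensity for each probe set of chips A, B and C, with groups and replicate numbers taken from the sample titles. The authors' summarisation, background correction and normalization of the deposited intensities could change every difference and were not given in the sources used here. Detection calls were not used, so a dim probe set may read background. Gene symbols came from the platform annotation, and a probe set with several was not used. Each chip was fitted alone as log2(intensity + 16) with lmFit and eBayes of limma 3.58.1 under R 4.3.3, as a two-sided test with Benjamini-Hochberg adjustment over all probe sets of the chip and a threshold of 0.05. The fit was tested on simulated data. Genes that passed and the brightest gene of each role that did not are described in full. The related lists give up to 3 called genes in each direction, and Srf and Hsf1. Members and lists were chosen with earlier results of these data known. Alternatives were other scalings, pseudocounts of 1 and 64, a brightness filter, limma-trend, a replicate block, other probe set choices, a threshold of 0.01 and each array left out. A probe set was called dim where its highest array lay below the median of the chip's array medians. Promoter windows came from RefSeq. Figures were drawn with matplotlib 3.10.9.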

Additional observations from a re-analysis of the deposited data

How the results depend on the processing

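Egr1, Gadd45g and Hsp90aa1 kept their call and direction under all 17 alternatives, and none of the 8 called genes changed sign. With 3 arrays per population, differences near the threshold turn on single arrays. The set had 1 gene higher and 7 lower, the immediate early genes 1 and 5, and the heat shock genes 0 and 2. Leaving out one array gave 0 to 4 higher and 3 to 10 lower for the set, 0 to 4 and 2 to 7 for the immediate early genes, and 1 to 4 lower for the heat shock genes. The same step gave 638 to 1738 probe sets higher and 674 to 1731 lower on chip A, 657 to 1473 and 995 to 1657 on chip B, and 141 to 1559 and 411 to 1417 on chip C. Higher genes, all immediate early, numbered 3 with a pseudocount of 1, with probe sets above the chip's median, with limma-trend and with the brightest probe set over all chips, which was chosen after seeing the data, and 2 without probe sets that can match several transcripts. Quantile normalization gave 5 lower heat shock genes. At an adjusted p under 0.01 the set had 0 higher and 3 lower, of them 2 immediate early and 1 heat shock.

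With the replicate number as a block, 0 genes of the set were higher. The adjusted p of Fos (0.117), Fosb (0.0745), Jun (0.0633) and Nr4a1 (0.0559) lay above the threshold, and 3 immediate early genes were lower, Egr1, Gadd45g and Egr3 (0.0444), the last of which did not pass without the block. With it, chip C had 187 probe sets higher and 454 lower, against 403 and 698 without the block. Deviations of same-numbered arrays correlated between -0.407 and 0.300, and in 2 of 9 cases over the chips the GFP-negative array of the same number correlated best, so the numbers were not taken to pair the samples.

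Of the genes that did not pass, 5 changed sign. Zfp36 was at 0.014 after quantile normalization and ranged from -0.13 to 0.18 when an array was left out, positive without GFP-positive replicate 1 or GFP-negative replicate 1. Hspa5 ranged from -0.33 to 0.013, positive without GFP-positive replicate 1 or 3 or GFP-negative replicate 3. Leaving out an array gave ranges of -0.44 to 0.000328 for Hspb1, positive without GFP-positive replicate 1, -0.033 to 0.25 for Junb, negative without GFP-positive replicate 2, and -0.21 to 0.11 for Gadd45a, positive without GFP-positive replicate 3. The cause was not tested for these changes.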
